A study of Mus musculus with 9 samples.

Results

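RNA of liver macrophages sorted 48 h after partial hepatectomy (PHx, surgery that takes out a portion of the liver) was compared with RNA of those sorted at 0 h. There were 3 libraries at 48 h and 3 at 0 h, which are 6 of the 9 libraries of the series. All were from male C57BL/6 mice of 6 to 8 weeks, with no genetic change or drug given for these samples, and from cells sorted as F4/80+CD11b+ out of the non-parenchymal cells of the digested liver. F4/80 and CD11b are surface proteins of macrophages. It is not stated in the labels or methods if different mice or pools of mice gave the libraries of a time, so each p-value measures the spread between these libraries only, which may be technical. Of the 56691 genes in the deposited table of counts, the 18978 that passed edgeR's filter on low counts are described here. Levels are CPM (a count scaled to the library's total) after TMM scaling, given for replicates 1, 2 and 3 of a time. Fold changes, standard errors and adjusted p-values come from edgeR's quasi-likelihood test with Benjamini-Hochberg adjustment over all genes tested, and a gene was called higher or lower at an adjusted p under 0.05.

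Kupffer cells are the resident macrophages of the liver. They lie along the sinusoids against the endothelium, where they clear bacterial products, immune complexes and worn red cells from the blood. When liver tissue is lost, monocytes can enter from the blood and become macrophages beside them. Macrophage cytokines such as interleukin-6 and tumor necrosis factor are known to prime hepatocytes for division. The comparison addresses how the transcripts of the sorted cells differed between the regenerating liver at 48 h and the liver at 0 h.

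The libraries of 48 h stood apart from those of 0 h in what they held. Mitochondrially encoded genes took 7.06%, 17.9% and 14% of the counts at 48 h, against 3.28%, 3.01% and 4.53% at 0 h (two-sided exact permutation p = 0.1, the smallest that 3 against 3 allows). The 4 adult globin genes took 5.53%, 17.7% and 13.1% at 48 h, against 0.71%, 1.64% and 1.63% at 0 h (exact permutation p = 0.1). Counts summed to 53297943 to 67951168 per library at 48 h and to 55453145 to 59909509 at 0 h. Between 20549 and 22986 genes had a count at 48 h, against 24179 to 26767 at 0 h. The BCV, the biological coefficient of variation that edgeR estimates, came to 0.761 in the 48 h libraries and 0.373 in the 0 h libraries. Across the tested genes, log2 CPM correlated between pairs of 48 h libraries with a Pearson r of 0.856 to 0.874, between pairs of 0 h libraries with 0.944 to 0.948, and between the times with 0.806 to 0.858. These are correlations across genes, which are not independent replicates.

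At 48 h, 1809 genes were higher than at 0 h, or 9.53% of those tested, and 1200 were lower, or 6.32%. All libraries of 48 h exceeded all of 0 h in 3576 genes (18.8%) and fell short of them in 3394 (17.9%). Among the higher genes were many of liver endothelium, B cells, T cells and MHC class II presentation. Among the lower ones were many of monocytes, neutrophil-attracting and monocyte-attracting chemokines, the immediate-early response and glycolysis. A change of at least 4-fold was reached by 1031 of the higher genes and 414 of the lower ones. The median log2 fold change of all genes tested was 0.04. Rises made up 60.1% of the calls with TMM factors and 45.5% with upper-quartile factors, which moved the median of all genes to -0.16. Scaling to 5 macrophage genes (Adgre1, Csf1r, C1qa, C1qb and C1qc), chosen after the data were seen, moved that median to 0.50 and left 1131 higher and 279 lower genes, with rises at 80.2% of the calls. Genes at an unadjusted p under 0.05 by edgeR numbered 5442 with TMM factors and 2971 with this scaling. A call lost under it may come from a smaller change or from a wider spread between libraries, which was not tested. Among fits with 1 library left out, those without a library of 0 h made the fewest calls, down to 958 higher and 476 lower for replicate 1, to 964 and 483 for replicate 2 and to 1100 and 653 for replicate 3.

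**Figure D1:**
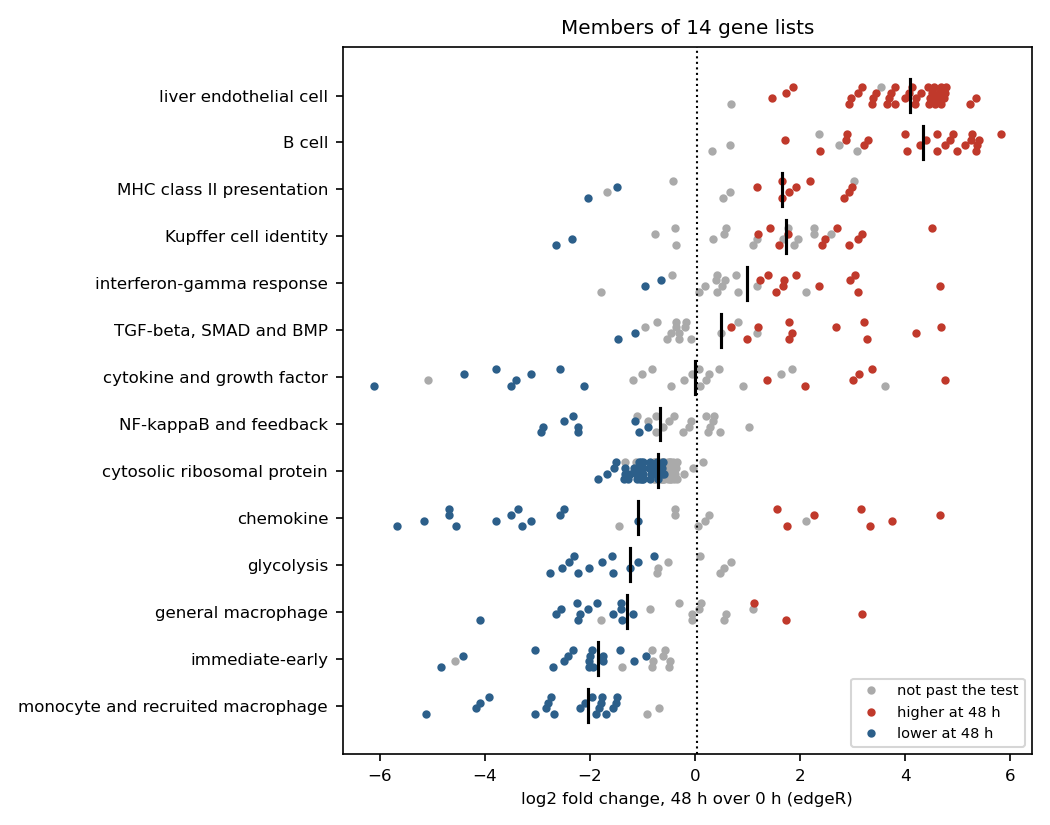
Each point is 1 tested gene of a list, placed by its log2 fold change at 48 h over 0 h, with red for genes called higher, blue for genes called lower and grey for genes not past the test. Black bars mark the list medians and the dotted line the median of all genes (0.04); endothelial and B cell genes lie to the right with medians of 4.10 and 4.34, and monocyte and immediate-early genes to the left with medians of -2.03 and -1.85.

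The genes of the sorting markers were detected at both times. Adgre1, which encodes F4/80, was at 244, 66.8 and 115 CPM at 48 h, against 179.6, 133 and 132 CPM at 0 h. The times overlapped and 48 h replicate 1 was the highest library (log2 fold change -0.06, standard error 0.43, adjusted p = 0.953). Itgam, the gene of CD11b, was at 22.2, 20.6 and 11.6 CPM at 48 h, against 38.1, 45.7 and 76.2 CPM at 0 h. It fell (log2 fold change -1.55, standard error 0.34, adjusted p = 0.02), with no overlap between the times, and lost the call without 48 h replicate 3 or without 0 h replicate 2 or 3 (adjusted p up to 0.072). Ptprc, which encodes the leukocyte antigen CD45, was at 157, 153 and 135 CPM at 48 h, against 229, 206 and 308 CPM at 0 h and fell (log2 fold change -0.74, standard error 0.21, adjusted p = 0.0486), a call that was lost without any 1 of the 6 libraries (adjusted p of 0.0597 to 0.157). Csf1r, the receptor of macrophage colony-stimulating factor, and C1qa, a complement chain of tissue macrophages, had log2 fold changes of -0.30 (BH-adjusted p = 0.712) and 0.11 (BH-adjusted p = 0.91) and were named after their values were seen. Without 48 h replicate 1, the highest of the 48 h libraries for Csf1r, that gene was called lower (log2 fold change -0.97, adjusted p = 0.0341).

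Of 26 tested genes that macrophages in general express, 13 fell and 3 rose, with a median log2 fold change of -1.29. Their summed level was 17850 to 44570 CPM at 48 h, against 93810 to 121200 CPM at 0 h. Cd14, the co-receptor for bacterial lipopolysaccharide, was at 126, 61.95 and 41.7 CPM at 48 h, against 1618, 1415 and 909.9 CPM at 0 h, so that each 48 h library was far below each 0 h library (log2 fold change -4.10, standard error 0.47, adjusted p = 0.00103). Cebpb, a transcription factor of myeloid cells, fell with a log2 fold change of -2.55 (BH-adjusted p = 0.0026). Fcer1g, the signalling chain of activating Fc receptors, fell by a similar amount (-2.26, adjusted p = 0.00385). The 3 that rose were Mrc1, the mannose receptor gene (3.18, adjusted p = 6.79e-05), the transcription factor gene Maf (1.74, adjusted p = 0.00151) and Mertk, a receptor for the uptake of dead cells (1.13, adjusted p = 0.0188). Mertk lost its call without any 1 library of 0 h (adjusted p up to 0.0737). Mrc1 and Maf are also on the endothelial list, and without these the others counted 1 higher and 13 lower of 24. Cd14, Itgam and the lysozyme gene Lyz2 are also on the monocyte list described next. The counts and sums of both lists hold these genes and are not separate results. Scaled to the 5 macrophage genes, 3 of the 26 fell and 1 rose. These 5 genes are themselves on this list, and the scaling holds their summed level equal between libraries, so these counts are not a separate check. In bulk RNA, fewer cells of a type and less RNA per cell cannot be told apart.

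Genes of monocytes and of macrophages newly derived from them were lower at 48 h. Of 22 tested, 20 fell and none rose by edgeR (0 at an unadjusted p under 0.05, 0 by DESeq2 and 0 by limma-voom), and the median log2 fold change was -2.03. The summed level was 13010 to 28960 CPM at 48 h, against 80680 to 128000 CPM at 0 h. Chil3, a chitinase-like protein of alternatively activated macrophages, was at 874, 408 and 513 CPM at 48 h, against 22902, 34564 and 5168 CPM at 0 h. All 48 h libraries were far below all 0 h libraries, and the 0 h libraries themselves spread widely (log2 fold change -5.12, standard error 0.74, adjusted p = 0.00296). Ccr2, the receptor by which monocytes leave the bone marrow for CCL2, was at 66.2, 96.1 and 94.5 CPM at 48 h, against 308, 321 and 316 CPM at 0 h (log2 fold change -1.88, standard error 0.21, adjusted p = 0.000878). Vcan, the proteoglycan versican of classical monocytes, was at 7.102, 4.86 and 2.27 CPM at 48 h, against 69.3, 98.8 and 47.7 CPM at 0 h (log2 fold change -3.92, standard error 0.47, adjusted p = 0.0013). Hp, the hemoglobin-binding haptoglobin, fell with a log2 fold change of -2.69 (BH-adjusted p = 0.000422). The 20 falls were 16 to 19 with any 1 library left out. They were 9 when scaled to the 5 macrophage genes, under which the median was -1.59.

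Genes of Kupffer cell identity rose more often than they fell, unevenly between the 48 h libraries. Of 28 tested, 11 rose and 2 fell, and the median log2 fold change was 1.72. Clec4f, a C-type lectin that marks Kupffer cells in mice, was at 2294, 259.8 and 718 CPM at 48 h, against 159, 72.97 and 309 CPM at 0 h. Its 48 h replicate 1 was the highest of all and its 48 h replicate 2 lay below 0 h replicate 3 (log2 fold change 2.60, standard error 0.81, adjusted p = 0.0689). It passed the threshold in 9 of the other settings tried, among them the fit without 48 h replicate 2, and Timd4 in 7, each number counting the fit with 48 h replicate 1 alone. Cd38, an NAD-consuming surface enzyme, was at 160.1, 203 and 212 CPM at 48 h, against 90.8, 90.7 and 69.9 CPM at 0 h and rose (log2 fold change 1.19, standard error 0.20, adjusted p = 0.0064). Clec1b, a lectin receptor also of platelets, was at 313, 176 and 184 CPM at 48 h, against 21.3, 12.8 and 39.7 CPM at 0 h and rose (log2 fold change 3.19, standard error 0.45, adjusted p = 0.00269). Ptprb and Cdh5 rose as well, with log2 fold changes of 4.52 (BH-adjusted p = 4.75e-05) and 3.10 (BH-adjusted p = 0.000793). Both are also genes of endothelium, and without them 9 of 26 rose and 2 fell. Among the falls was Hmox1, the heme oxygenase gene (-2.34, adjusted p = 0.0336), which lost its call without any 1 library other than 48 h replicate 1 (adjusted p up to 0.126). Vsig4, a complement receptor, and Timd4, a receptor for phosphatidylserine, were chosen after their values were seen. Vsig4 was at 577, 110.5 and 252 CPM at 48 h, against 59.7, 26.9 and 88.9 CPM at 0 h and rose (log2 fold change 2.42, standard error 0.64, adjusted p = 0.0383), a call lost without any 1 library other than 48 h replicate 2 (adjusted p up to 0.144). Timd4 was at 135, 33.7 and 44.05 CPM at 48 h, against 15.3, 4.54 and 24.4 CPM at 0 h (log2 fold change 2.27, standard error 0.70, adjusted p = 0.0653). In both, 48 h replicate 1 was at least as high as the other 48 h libraries together. The 11 rises became 6, 13 and 7 on leaving out 48 h replicate 1, 2 and 3 in turn and 5, 4 and 6 without 0 h replicate 1, 2 and 3. The 2 falls became 1 without any 1 library other than 48 h replicate 1.

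**Figure D2:**
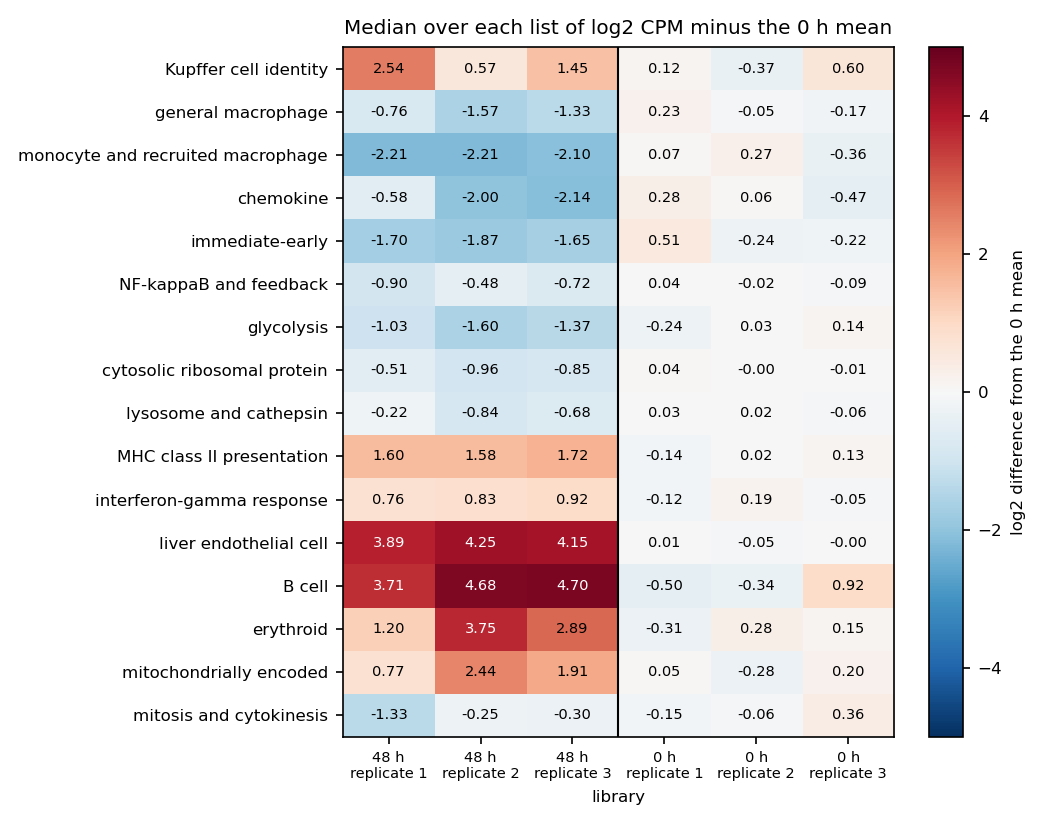
Each cell gives, for 1 library (columns, 48 h left of 0 h), the median over the genes of a list (rows) of log2 CPM minus the mean of the 0 h libraries. The Kupffer list stood at 2.54, 0.57 and 1.45 in 48 h replicates 1, 2 and 3, while the monocyte list stood at -2.21, -2.21 and -2.10 in the same libraries.

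Chemokine genes were split at 48 h. Of 27 tested, 13 fell and 7 rose, and the median log2 fold change was -1.08. The genes that fell hold those of the CXC chemokines that attract neutrophils and the CC chemokines that attract monocytes. Cxcl2 was at 183, 165 and 77.4 CPM at 48 h, against 7127, 4563 and 3502 CPM at 0 h. Its 48 h libraries were all below its 0 h libraries by more than an order of magnitude (log2 fold change -5.16, standard error 0.47, adjusted p = 0.000354). Cxcl1 was at 1.66, 2.100 and 0.8498 CPM at 48 h, against 123, 86.3 and 25.9 CPM at 0 h (log2 fold change -5.67, standard error 0.65, adjusted p = 0.00108). Ccl9, a myeloid chemokine, was at 154, 143 and 175 CPM at 48 h, against 2313, 2025 and 986 CPM at 0 h (log2 fold change -3.50, standard error 0.35, adjusted p = 0.000583), and Ccl6, another of this kind, fell with a log2 fold change of -3.29 (BH-adjusted p = 0.0013). Ccl2, the ligand of CCR2, was at 63.1, 22.3 and 16.05 CPM at 48 h, against 1413, 758 and 217 CPM at 0 h and fell (log2 fold change -4.56, standard error 0.81, adjusted p = 0.00778). It was named after its values were seen.

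The 7 chemokine genes that rose include those that attract T cells and B cells. Cxcl9, an interferon-gamma-induced ligand of CXCR3, was at 77.6, 93.4 and 136 CPM at 48 h, against 3.72, 3.31 and 5.11 CPM at 0 h. Every 48 h library was higher than every 0 h library (log2 fold change 4.66, standard error 0.31, adjusted p = 9.02e-05). Ccl5, a chemokine made by T cells and NK cells, was at 164, 84.3 and 162 CPM at 48 h, against 12.6, 13.05 and 15.1 CPM at 0 h (log2 fold change 3.33, standard error 0.30, adjusted p = 0.000321). Cxcl13, which attracts B cells to follicles, was at 78.1, 30.1 and 37.2 CPM at 48 h, against 5.31, 5.63 and 5.28 CPM at 0 h (log2 fold change 3.16, standard error 0.38, adjusted p = 0.00129). Cxcl16, a membrane-bound ligand of CXCR6, rose with a log2 fold change of 1.56 (BH-adjusted p = 0.00123). Cxcl10, another ligand of CXCR3, was at 69.3, 60.3 and 92.4 CPM at 48 h, against 83.4, 69.97 and 41.3 CPM at 0 h, where the times overlapped (log2 fold change 0.19, standard error 0.29, adjusted p = 0.739). The counts of 7 higher and 13 lower became 4 and 8 for 0 h replicate 1 left out and 5 and 8 for 0 h replicate 2 left out. Scaled to the 5 macrophage genes they were 5 and 9.

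The promoters of Cxcl1 and Cxcl2, which fell furthest among the chemokines, and of Nfkbia, the inhibitor of NF-kappaB that this factor itself induces, are shown for the letters they share. RefSeq windows of 300 bases (250 before to 50 after the start, GRCm38.p6) were searched on both strands for GGGNNTTTCC, a form of the NF-kappaB site. It stood in 1.63% of 32851 windows. Of 19 chemokine genes with a window 4 held it (Ccl9, Cxcl1, Cxcl2 and Cxcl3), and all 4 fell. Of 21 genes of the NF-kappaB list with a window 5 held it, of which 3 fell and 2 were not past the test, and of 21 immediate-early genes with a window 0 held it. Such a match is a description of letters and says nothing of binding. Of all 27 chemokine genes tested 13 fell, and whether genes with a match fell more often than others was not tested. The 180 bases before the start are printed 5′ to 3′, with matches in capitals on either strand; that of Cxcl1 is chr5:90891065-90891244 on the plus strand, that of Cxcl2 chr5:90903719-90903898 on the plus strand and that of Nfkbia chr12:55492648-55492827 on the minus strand.
Cxcl1: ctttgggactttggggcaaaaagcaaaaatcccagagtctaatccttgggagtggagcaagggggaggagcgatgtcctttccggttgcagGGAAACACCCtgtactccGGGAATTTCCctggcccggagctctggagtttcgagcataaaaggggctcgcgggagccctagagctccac
Cxcl2: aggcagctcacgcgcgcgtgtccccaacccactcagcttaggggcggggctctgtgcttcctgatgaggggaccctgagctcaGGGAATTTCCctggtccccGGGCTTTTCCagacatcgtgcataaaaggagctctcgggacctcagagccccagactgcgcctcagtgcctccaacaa
Nfkbia: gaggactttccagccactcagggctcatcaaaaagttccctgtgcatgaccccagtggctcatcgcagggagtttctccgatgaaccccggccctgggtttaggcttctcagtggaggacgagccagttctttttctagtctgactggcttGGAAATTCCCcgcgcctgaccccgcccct
Cxcl1 held 2 matches, which begin 89 and 71 bases before the start, Cxcl2 held 2, at 97 and 78 bases, and Nfkbia held 1, at 29 bases.

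NF-kappaB is a family of transcription factors that inflammatory signals release into the nucleus, where it induces cytokine genes and its own inhibitors. Of 26 tested genes of this family and of its feedback, 9 fell and none rose by edgeR (1 at an unadjusted p under 0.05, 1 by DESeq2 and 0 by limma-voom), with a median log2 fold change of -0.67. Nfkbia was at 668, 525 and 521 CPM at 48 h, against 5978, 3839 and 2957 CPM at 0 h, with all 48 h libraries close together and below all 0 h libraries (log2 fold change -2.90, standard error 0.32, adjusted p = 0.000896). Tnfaip3, the ubiquitin-editing enzyme A20 that ends NF-kappaB signalling, was at 14.1, 8.17 and 17.3 CPM at 48 h, against 116, 116 and 69.4 CPM at 0 h (log2 fold change -2.93, standard error 0.34, adjusted p = 0.00114). Nfkbiz, a nuclear inhibitor-like cofactor, and Socs3, which ends signalling by interleukin-6, fell with log2 fold changes of -2.22 (BH-adjusted p = 0.00152) and -2.22 (BH-adjusted p = 0.00164). The 9 falls were 6 to 9 with any 1 library left out and 2 when scaled to the 5 macrophage genes.

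Immediate-early genes are those that cells switch on within minutes of a stimulus without new protein, and most of those tested fell. Of 26 tested, 17 fell and none rose by edgeR (0 at an unadjusted p under 0.05, 0 by DESeq2 and 0 by limma-voom), and the median log2 fold change was -1.85. Ier3, an early stress response gene, was at 40.7, 38.05 and 28.4 CPM at 48 h, against 922, 583 and 800.1 CPM at 0 h (log2 fold change -4.43, standard error 0.28, adjusted p = 7.15e-05). Atf3, a stress-induced transcription factor, was at 97.9, 56.05 and 91.6 CPM at 48 h, against 1082, 431 and 512 CPM at 0 h (log2 fold change -3.04, standard error 0.41, adjusted p = 0.00224). Zfp36, an RNA-binding protein that speeds the decay of Tnf mRNA, was at 549.6, 485 and 615 CPM at 48 h, against 3793, 1766 and 2656 CPM at 0 h (log2 fold change -2.32, standard error 0.31, adjusted p = 0.00225). In these genes all 48 h libraries were below all 0 h libraries, and 0 h replicate 1 was the highest library. Csrnp1 and Fosl1, nuclear factors of this class, fell with log2 fold changes of -2.01 (BH-adjusted p = 0.00376) and -4.83 (BH-adjusted p = 0.00682). The 17 falls were 9 without 0 h replicate 1, 11 without 0 h replicate 2 and 14 or 15 without any other library, and 5 when scaled to the 5 macrophage genes.

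**Figure D3:**
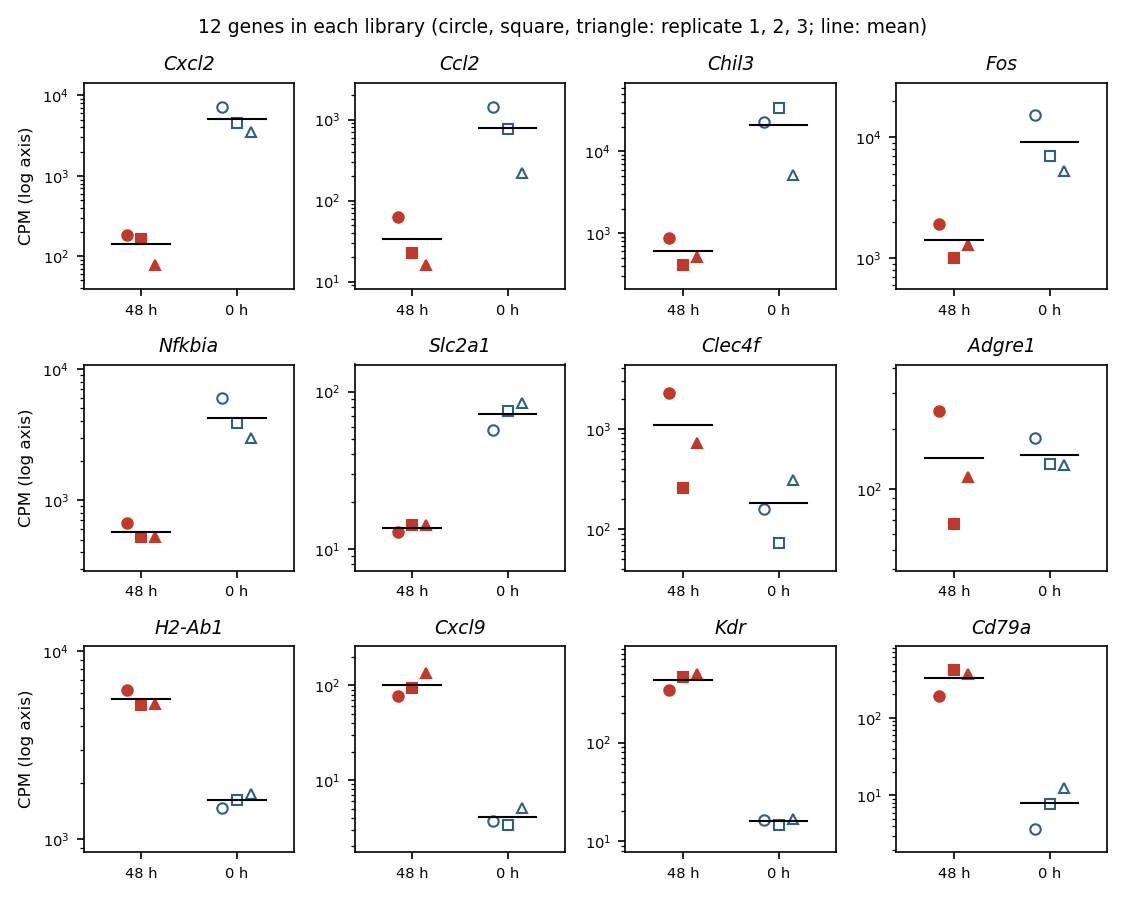
CPM on log axes of 12 genes in each library, 48 h left of 0 h, with circles, squares and triangles for replicates 1, 2 and 3 and lines for the means. Cxcl2, Ccl2, Chil3, Fos, Nfkbia and Slc2a1 lie lower in all 48 h libraries, H2-Ab1, Cxcl9, Kdr and Cd79a higher, and Clec4f and Adgre1 overlap.

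Of 30 tested genes of cytokines, growth factors and their receptors, 6 rose and 8 fell, among them Il6, Tnf and Osm. Il6 was at 0.779, 0.837 and 3.02 CPM at 48 h, against 26.5, 9.103 and 4.94 CPM at 0 h and fell (log2 fold change -3.13, standard error 0.79, adjusted p = 0.0323), but it was no longer called on leaving out replicate 1 or 2 of either time (adjusted p up to 0.150). Tnf was at 30.4, 20 and 23.9 CPM at 48 h, against 224, 156 and 63.2 CPM at 0 h and fell (log2 fold change -2.57, standard error 0.44, adjusted p = 0.00653). Osm, the interleukin-6 family member oncostatin M, was at 27.5, 81.6 and 38.8 CPM at 48 h, against 219, 180.1 and 244 CPM at 0 h and fell (log2 fold change -2.12, standard error 0.39, adjusted p = 0.00972). Tnfsf9, the ligand of 4-1BB, a costimulatory receptor of T cells, fell with a log2 fold change of -4.39 (BH-adjusted p = 0.000306). Il1b was at 116, 361 and 226 CPM at 48 h, against 533, 363 and 584 CPM at 0 h and did not pass (log2 fold change -1.07, standard error 0.40, adjusted p = 0.117). It passed with DESeq2 and without 48 h replicate 2 (adjusted p = 0.0356).

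Among the 6 that rose, Il6st, the gp130 chain shared by receptors of the interleukin-6 family, was at 260.5, 263 and 245 CPM at 48 h, against 18.7, 42.4 and 33.9 CPM at 0 h. The times did not overlap (log2 fold change 3.02, standard error 0.31, adjusted p = 0.000647). Wnt2 and Rspo3, Wnt pathway ligands of liver endothelium, rose with log2 fold changes of 4.76 (BH-adjusted p = 6.79e-05) and 3.36 (BH-adjusted p = 0.000297), and Ltb, the lymphotoxin beta of lymphocytes, with 3.13 (BH-adjusted p = 0.000869). Endothelial and lymphocyte markers rose in the same libraries (values with those lists), and their part in these rises was not tested. Hgf, the hepatocyte growth factor of stellate and endothelial cells, was at 11.3, 8.27 and 15.7 CPM at 48 h, against 6.23, 3.61 and 3.802 CPM at 0 h and rose (log2 fold change 1.37, standard error 0.36, adjusted p = 0.0382). This call was lost without any 1 library other than 48 h replicate 2 (adjusted p up to 0.151). Without 0 h replicate 1 or 2 the 8 falls of the list were 3, and scaled to the 5 macrophage genes 5 rose and 3 fell. Wnt2 and Rspo3 are on the endothelial list, and without them 4 of 28 rose and 8 fell.

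Acute-phase genes are raised by hepatocytes and some myeloid cells in inflammation. Of 24 tested, 11 fell, 1 rose and 12 did not pass, and the median log2 fold change was -0.76. Saa3, a serum amyloid A form made by macrophages, was at 50.2, 36.3 and 11.8 CPM at 48 h, against 1323, 2432 and 848 CPM at 0 h (log2 fold change -5.55, standard error 0.66, adjusted p = 0.00129). Saa1, a hepatocyte form, was at 3.97, 2.85 and 2.03 CPM at 48 h, against 85.9, 91.6 and 248.5 CPM at 0 h (log2 fold change -5.58, standard error 0.54, adjusted p = 0.000468). Lcn2, the siderophore-binding lipocalin, fell with a log2 fold change of -3.68 (BH-adjusted p = 0.00174). Orm2, an orosomucoid gene, had no count in any 48 h library and a mean of 2.22 CPM at 0 h. That mean is 150-fold above 3 counts over the 3 libraries of 48 h, and Orm2 was named for this after its values were seen. Lbp, the lipopolysaccharide-binding protein, was the 1 that rose, at 31.96, 26.9 and 41.6 CPM at 48 h, against 5.98, 6.36 and 6.47 CPM at 0 h (log2 fold change 2.42, standard error 0.24, adjusted p = 0.000505). Of 30 genes of hepatocyte function 1 rose and 2 fell, with a median of 0.02, and their summed level was 3365 to 6397 CPM at 48 h, against 5440 to 9152 CPM at 0 h. The share of falls was close to the 6.32% of all tested genes, of which 9.53% were higher. The 1 rise was 4 without 48 h replicate 3 and 0 without any 1 library of 0 h, and 1 gene fell without any 1 library.

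Genes of MHC class II, by which cells present antigen to helper T cells, rose in part. Of 16 tested, 9 rose, 2 fell and 5 did not pass, and the median log2 fold change was 1.66. H2-Ab1, the beta chain of I-A, was at 6202, 5179.8 and 5239 CPM at 48 h, against 1464, 1622 and 1746 CPM at 0 h. The 48 h libraries were all above the 0 h libraries, with little spread within a time (log2 fold change 1.78, standard error 0.22, adjusted p = 0.00159). H2-Aa, its alpha chain, was at 1635, 1598 and 1974 CPM at 48 h, against 506, 554 and 587 CPM at 0 h (log2 fold change 1.66, standard error 0.20, adjusted p = 0.00149), and H2-Eb1, the beta chain of I-E, was at 1189.6, 1148 and 1246 CPM at 48 h, against 319, 401 and 415 CPM at 0 h (log2 fold change 1.66, standard error 0.20, adjusted p = 0.00138). H2-Ob, a chain of the modulator H2-O found in B cells and some dendritic cells, was at 21.7, 36.4 and 46.8 CPM at 48 h, against 3.11, 4.37 and 5.64 CPM at 0 h (log2 fold change 3.00, standard error 0.36, adjusted p = 0.00135). The falls were Ctss, the cathepsin that trims the invariant chain (-2.03, adjusted p = 0.00782), and Ifi30, a lysosomal thiol reductase (-1.49, adjusted p = 0.0096). Scaled to the 5 macrophage genes 6 rose and 0 fell.

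Markers of B cells and dendritic cells, which express MHC class II themselves, rose in the same libraries. Of 28 tested B cell genes 23 rose and none fell by edgeR (0 at an unadjusted p under 0.05, 0 by DESeq2 and 0 by limma-voom). Of 22 dendritic cell genes 12 rose and none fell (0 at an unadjusted p under 0.05, 0 by DESeq2 and 0 by limma-voom). Cd79a, a chain of the B cell receptor, was at 189, 416 and 367 CPM at 48 h, against 3.72, 7.81 and 12.3 CPM at 0 h (log2 fold change 5.35, standard error 0.53, adjusted p = 0.000554). Zbtb46, a transcription factor of classical dendritic cells, was at 28.5, 32.7 and 35.1 CPM at 48 h, against 2.88, 2.24 and 2.89 CPM at 0 h (log2 fold change 3.59, standard error 0.24, adjusted p = 8.84e-05). Their part in the MHC class II values was not tested.

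The start of an MHC class II gene usually carries a Y box, an inverted CCAAT motif bound by the factor NF-Y. TGATTGG, its core, was searched on both strands in the same RefSeq windows. It stood in 7.82% of 32851 windows and in 7 of the 11 genes of the list with a window, of which 6 rose and 0 fell. H2-Ab1, which rose, was not among these 7. Of the whole list 9 of 16 rose, and whether genes with the core rose more often than others was not tested. The longer form CTGATTGG stood in 4.10% of windows and in 4 of the 11, of which 3 rose. The 180 bases before the start are given for H2-Aa (chr17:34287824-34288003 on the minus strand), H2-Eb1 (chr17:34305687-34305866 on the plus strand) and H2-Oa (chr17:34092199-34092378 on the plus strand), 5′ to 3′ in GRCm38.p6, with the core in capitals to show the place it has in each.
H2-Aa: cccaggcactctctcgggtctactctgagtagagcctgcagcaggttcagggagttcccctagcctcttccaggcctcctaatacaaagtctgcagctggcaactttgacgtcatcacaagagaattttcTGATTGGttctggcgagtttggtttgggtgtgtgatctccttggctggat
H2-Eb1: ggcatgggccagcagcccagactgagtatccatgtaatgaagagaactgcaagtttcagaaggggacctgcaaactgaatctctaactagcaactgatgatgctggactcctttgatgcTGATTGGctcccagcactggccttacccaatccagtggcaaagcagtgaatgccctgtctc
H2-Oa: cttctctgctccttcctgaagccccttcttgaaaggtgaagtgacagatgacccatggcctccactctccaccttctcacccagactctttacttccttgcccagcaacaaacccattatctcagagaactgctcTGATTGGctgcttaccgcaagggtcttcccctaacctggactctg
The core begins 50, 61 and 45 bases before the start of H2-Aa, H2-Eb1 and H2-Oa. H2-Oa, the other chain of H2-O, rose with a log2 fold change of 2.93 (BH-adjusted p = 0.00201) and was chosen for its promoter after its values were seen.

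Genes of the response to interferon-gamma, which acts through JAK1 and JAK2, were higher in part. The list holds genes that interferon-gamma induces and also genes of its signalling, such as Jak1 and the receptor genes Ifngr1 and Ifngr2. Of 26 tested, 11 rose and 2 fell, and the median log2 fold change was 0.99. Gbp4, a guanylate-binding protein, was at 19.6, 24.2 and 29.1 CPM at 48 h, against 2.32, 4.86 and 2.19 CPM at 0 h (log2 fold change 2.96, standard error 0.38, adjusted p = 0.00174). Iigp1, an immunity-related GTPase, was at 25.2, 43.7 and 43.3 CPM at 48 h, against 7.23, 5.57 and 9.06 CPM at 0 h (log2 fold change 2.36, standard error 0.30, adjusted p = 0.00175). Jak1 was at 233, 262 and 253 CPM at 48 h, against 76.6, 75.97 and 80.99 CPM at 0 h and rose, with no overlap and little spread (log2 fold change 1.68, standard error 0.17, adjusted p = 0.000551). Irf1, a transcription factor induced by interferon-gamma, was at 41.1, 48.8 and 102 CPM at 48 h, against 30.6, 32.2 and 22.1 CPM at 0 h and did not pass (log2 fold change 1.18, standard error 0.36, adjusted p = 0.0629), although the times did not overlap and it passed in 6 other settings, among them DESeq2 and the fit without 48 h replicate 1. The log2 fold change of Jak2 was 0.39 (BH-adjusted p = 0.418). The falls were the receptor genes Ifngr1 (-0.94, adjusted p = 0.0245) and Ifngr2 (-0.65, adjusted p = 0.0475), of which Ifngr1 lost its call without 48 h replicate 2 or any 1 library of 0 h and Ifngr2 without any 1 library. Without 0 h replicate 1 the counts of 11 higher and 2 lower were 6 and 0. On leaving out replicate 2 of either time they were 10 and 0. On leaving out replicate 3 they were 9 and 1 for that of 48 h, against 8 and 1 for that of 0 h. They were 6 and 0 when scaled to the 5 macrophage genes.

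Of 30 tested genes of the type I interferon response 5 rose and none fell by edgeR (4 at an unadjusted p under 0.05, 4 by DESeq2 and 1 by limma-voom). Ifi44 and Ifit3, induced by viral RNA, rose with log2 fold changes of 3.26 (BH-adjusted p = 0.000741) and 2.21 (BH-adjusted p = 0.00359). Ifit1 was at 11.6, 21.9 and 17.9 CPM at 48 h, against 10.2, 14.1 and 4.96 CPM at 0 h and did not pass (log2 fold change 0.81, standard error 0.41, adjusted p = 0.248). Without 0 h replicate 1 or 3 or 48 h replicate 2 the 5 rises were 3, and without 0 h replicate 3 or 48 h replicate 1 there was 1 fall. Of 19 genes of JAK and STAT signalling 5 rose and 2 fell, which became 1 and 1 if 0 h replicate 1 or 2 was left out, 3 and 1 for replicate 3 of either time, 4 and 1 for 48 h replicate 2, and 0 and 0 when scaled to the 5 macrophage genes. For comparison, 9.53% of all tested genes were higher and 6.32% lower. Stat3, the main factor of interleukin-6, was at 95.9, 85.00 and 116 CPM at 48 h, against 114, 135 and 136 CPM at 0 h (log2 fold change -0.38, standard error 0.19, adjusted p = 0.246).

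Endothelial genes rose almost throughout. Of 38 tested genes of liver endothelium 36 rose and none fell by edgeR (0 at an unadjusted p under 0.05, 0 by DESeq2 and 0 by limma-voom), and the median log2 fold change was 4.10. Their summed level was 13310 to 14850 CPM at 48 h, against 957 to 1118 CPM at 0 h. Stab2, a hyaluronan scavenger receptor of sinusoidal endothelium, was at 538, 574 and 510.0 CPM at 48 h, against 24.2, 21.2 and 22.8 CPM at 0 h (log2 fold change 4.57, standard error 0.20, adjusted p = 4.75e-05). Oit3, another gene of sinusoidal endothelium, was at 569.8, 594 and 619 CPM at 48 h, against 17.9, 12.5 and 13.6 CPM at 0 h (log2 fold change 5.34, standard error 0.24, adjusted p = 4.75e-05). Ehd3, a membrane-trafficking gene, and Ramp2, the partner of the adrenomedullin receptor, rose with log2 fold changes of 4.74 (BH-adjusted p = 4.75e-05) and 4.56 (BH-adjusted p = 4.75e-05). In each of these the 48 h libraries differed among themselves by far less than they differed from 0 h. The count was 36 without any 1 library and 33 when scaled to the 5 macrophage genes. Kdr, the receptor VEGFR2, was at 345, 459 and 501 CPM at 48 h, against 16.5, 14.7 and 16.6 CPM at 0 h (log2 fold change 4.77, standard error 0.24, adjusted p = 4.75e-05) and was chosen, like Fos, for the plot of single genes after its values were seen.

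**Figure D4:**
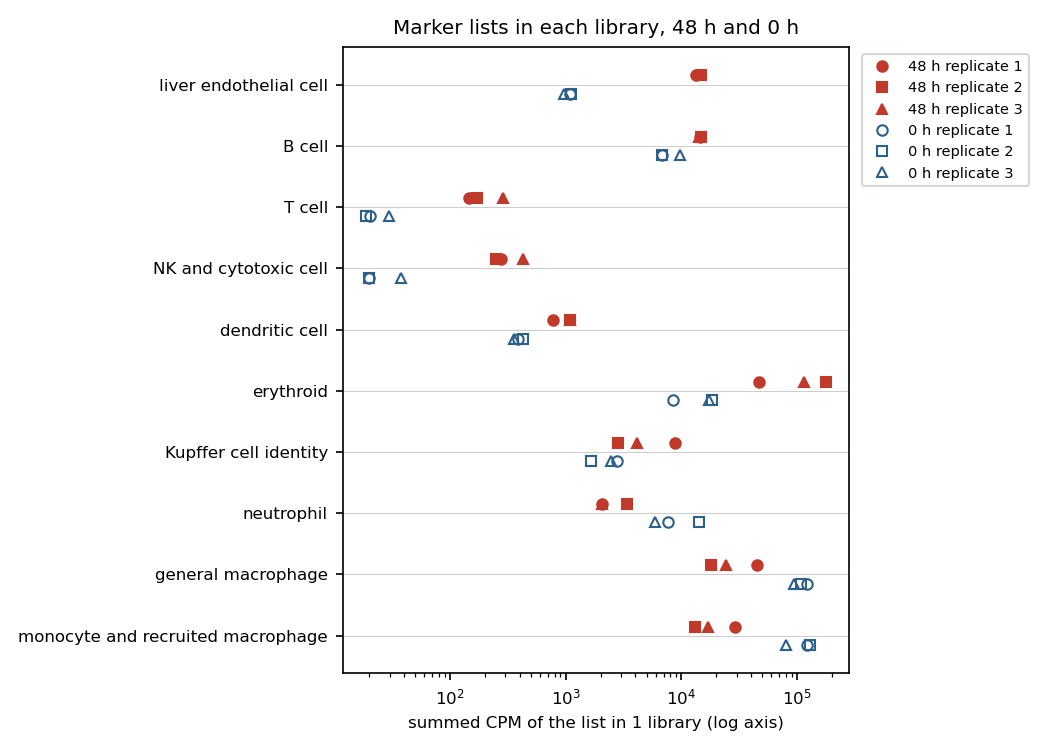
Summed CPM on a log axis of 10 marker lists in each library, with filled red symbols for 48 h above open blue symbols for 0 h, and circles, squares and triangles for replicates 1, 2 and 3. Endothelial, B, T, NK, dendritic and erythroid sums lie higher in all 48 h libraries, neutrophil, general macrophage and monocyte sums lie lower, and the Kupffer list has 48 h replicate 1 far to the right.

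Most of the lymphocyte genes tested rose too. The summed level of the 28 B cell genes was 14230 to 14810 CPM at 48 h, against 6730 to 9664 CPM at 0 h. Most of it came from Cd74, the invariant chain that macrophages also express, at 12819, 11460.0 and 11436 CPM at 48 h, against 6569, 6638 and 9401 CPM at 0 h, which did not pass (log2 fold change 0.66, standard error 0.26, adjusted p = 0.134) and was named after its values were seen. Cd79b, the other signalling chain of the B cell receptor, was at 135, 236 and 197 CPM at 48 h, against 6.81, 8.77 and 13.7 CPM at 0 h (log2 fold change 4.28, standard error 0.35, adjusted p = 0.000221). Ly6d and Fcrla rose with log2 fold changes of 3.998 (BH-adjusted p = 0.000375) and 5.37 (BH-adjusted p = 0.000293). Of 115 tested immunoglobulin variable genes, which as near-identical copies may share reads, 92 rose (log2 fold changes of 3.07 to 11.7), and of 6 tested T cell receptor variable genes 3 rose.

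Of 23 tested T cell genes 14 rose and none fell by edgeR (0 at an unadjusted p under 0.05, 0 by DESeq2 and 0 by limma-voom), with 17 rises by DESeq2 and 7 by limma-voom, with a summed level of 147 to 289 CPM at 48 h, against 18.7 to 29.6 CPM at 0 h. Trac, the constant region of the T cell receptor alpha chain, was at 8.41, 6.79 and 14.9 CPM at 48 h, against 0.543, 0.449 and 0.738 CPM at 0 h (log2 fold change 4.12, standard error 0.47, adjusted p = 0.000971). Lck, the kinase of that receptor, rose with a log2 fold change of 3.79 (BH-adjusted p = 0.00168). Of 14 tested NK cell and cytotoxic genes 10 rose and none fell (0 at an unadjusted p under 0.05, 0 by DESeq2 and 0 by limma-voom), with 11 rises by DESeq2 and 4 by limma-voom. Klrk1, the receptor NKG2D, was at 18.3, 24.9 and 24.8 CPM at 48 h, against 2.696, 1.91 and 3.95 CPM at 0 h (log2 fold change 2.99, standard error 0.34, adjusted p = 0.000935). Nkg7, a granule protein, was at 27.6, 62.7 and 87.8 CPM at 48 h, against 1.38, 0.953 and 4.84 CPM at 0 h (log2 fold change 4.63, standard error 0.72, adjusted p = 0.00432). The 14 T cell rises were 8 and 9 without 0 h replicate 1 and 2, and the 10 NK cell rises were 4, 5 and 5 without 0 h replicate 1, 0 h replicate 2 and 48 h replicate 3.

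Red cell genes were highest in 48 h replicates 2 and 3, the libraries with the largest mitochondrial share. Of 14 tested erythroid genes 7 rose and 1 fell. Hba-a2, an alpha globin gene, was at 16043, 46484 and 32263 CPM at 48 h, against 2744, 5508 and 5828 CPM at 0 h (log2 fold change 2.75, standard error 0.48, adjusted p = 0.00759). Its 48 h replicate 1 was the lowest of the 48 h libraries. The fall was Ermap, a red cell membrane gene with no count at 48 h and 0.285 CPM at 0 h, 19.3-fold above 3 counts over the 48 h libraries. Its call was lost without any 1 library. The 7 rises became 11 without 48 h replicate 1. On leaving out 0 h replicate 1, 2 and 3 in turn they were 1, 1 and 3.

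Genes of glycolysis, the breakdown of glucose to lactate on which activated macrophages depend, mostly fell. Of 19 tested, 12 fell and none rose by edgeR (1 at an unadjusted p under 0.05, 0 by DESeq2 and 0 by limma-voom), and the median log2 fold change was -1.24. Slc2a1, the glucose transporter GLUT1, was at 12.8, 14.2 and 14.2 CPM at 48 h, against 56.9, 75.6 and 84.6 CPM at 0 h. The libraries of a time lay close together and the times did not overlap (log2 fold change -2.40, standard error 0.21, adjusted p = 0.000311). Pkm, the pyruvate kinase gene, was at 438, 354 and 331 CPM at 48 h, against 1804, 1888 and 1581 CPM at 0 h (log2 fold change -2.23, standard error 0.22, adjusted p = 0.0005). Eno1, an enolase gene, and Slc16a3, the lactate exporter MCT4, fell with log2 fold changes of -2.30 (BH-adjusted p = 0.000448) and -2.53 (BH-adjusted p = 0.00103). Hif1a, the hypoxia-inducible factor that induces many genes of this path, was at 27.2, 27.2 and 26.8 CPM at 48 h, against 92.1, 74.04 and 95.1 CPM at 0 h and fell (log2 fold change -1.69, standard error 0.18, adjusted p = 0.00075). The 12 falls of glycolysis were 9 to 14 with any 1 library left out and 1 when scaled to the 5 macrophage genes, under which the median stayed below 0 at -0.84.

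Of 47 tested nuclear genes of oxidative phosphorylation 11 fell and none rose by edgeR (0 at an unadjusted p under 0.05, 0 by DESeq2 and 0 by limma-voom), with a median of -0.43. Falls were 19 by DESeq2. Of 13 genes of the mitochondrial genome 9 rose and none fell (0 at an unadjusted p under 0.05, 0 by DESeq2 and 0 by limma-voom), with a median of 1.75. Cycs, cytochrome c, was at 176, 212 and 197 CPM at 48 h, against 612, 524 and 549 CPM at 0 h (log2 fold change -1.52, standard error 0.19, adjusted p = 0.0014). The mitochondrial gene mt-Cytb, a subunit of complex III, was at 6114, 21022 and 13695 CPM at 48 h, against 2931, 2229.8 and 3028 CPM at 0 h (log2 fold change 2.32, standard error 0.45, adjusted p = 0.0115). It was highest in 48 h replicate 2 and lowest at 48 h in replicate 1. The 11 nuclear falls were 18, 6 and 3 on leaving out 48 h replicate 1, 2 and 3 in turn and 2, 3 and 3 without 0 h replicate 1, 2 and 3. Scaled to the 5 macrophage genes 0 fell and the median was 0.02. The 9 mitochondrial rises were 4 without 48 h replicate 3 or 0 h replicate 3, and 0 without 0 h replicate 1 or 2. The call of mt-Cytb was among those lost without 0 h replicate 1 or 2 (adjusted p up to 0.0743).

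Of 80 tested genes of cytosolic ribosomal proteins 35 fell and none rose by edgeR (0 at an unadjusted p under 0.05, 0 by DESeq2 and 0 by limma-voom), with a median of -0.71. Rpl35, of the large subunit, was at 351, 410.0 and 474 CPM at 48 h, against 1667, 1389.6 and 1368 CPM at 0 h (log2 fold change -1.84, standard error 0.22, adjusted p = 0.00119). The 35 falls were 60, 21 and 20 on leaving out 48 h replicate 1, 2 and 3 in turn, 15, 17 and 18 without 0 h replicate 1, 2 and 3, and 0 when scaled to the 5 macrophage genes, with a median of -0.34.

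Of 24 genes of alternatively activated and lipid-associated macrophages 10 fell and 3 rose. Lgals3, the lectin galectin-3, was at 859, 611 and 472 CPM at 48 h, against 5516, 5111 and 3422 CPM at 0 h (log2 fold change -2.86, standard error 0.32, adjusted p = 0.001). Spp1, osteopontin, was at 489, 435 and 553 CPM at 48 h, against 1737, 2885 and 1837 CPM at 0 h (log2 fold change -2.13, standard error 0.27, adjusted p = 0.00167). Arg1, the arginase of alternatively activated macrophages and of hepatocytes, was at 94.7, 149.6 and 63.3 CPM at 48 h, against 476, 694 and 461 CPM at 0 h (log2 fold change -2.41, standard error 0.35, adjusted p = 0.00306). Fabp4, a fatty acid-binding protein of endothelium and macrophages, rose, at 375, 379 and 402 CPM at 48 h, against 47.4, 47.1 and 49.1 CPM at 0 h (log2 fold change 3.01, standard error 0.18, adjusted p = 5.81e-05). The other rises were Mrc1 and Cd36, a fatty acid scavenger receptor also of endothelium (1.58, adjusted p = 0.0153), whose call was lost without 0 h replicate 2 or 3. Mrc1 is on the endothelial list, and without it 2 of 23 rose and 10 fell. The 10 falls were 6 without 48 h replicate 3 or 0 h replicate 1 or 2 and 4 when scaled to the 5 macrophage genes.

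Of 27 tested genes of the TGF-beta and BMP pathways, which restrain hepatocyte growth and set iron uptake, 11 rose and 2 fell. Bmp2, an endothelial ligand that induces hepcidin in hepatocytes, was at 86.9, 138 and 161 CPM at 48 h, against 6.44, 8.11 and 6.32 CPM at 0 h (log2 fold change 4.21, standard error 0.29, adjusted p = 9.26e-05), and Bmp6, its partner in this, was at 22.2, 29.01 and 22.8 CPM at 48 h, against 2.86, 2.06 and 2.69 CPM at 0 h (log2 fold change 3.28, standard error 0.26, adjusted p = 0.0002). Eng and Tgfbr3, the co-receptors endoglin and betaglycan, rose with log2 fold changes of 4.68 (BH-adjusted p = 4.75e-05) and 3.22 (BH-adjusted p = 0.000233). The falls were Tgif1, a repressor of SMAD targets (-1.15, adjusted p = 0.0147), and Id2, an inhibitor of helix-loop-helix factors (-1.46, adjusted p = 0.0397). Tgif1 lost its call without 0 h replicate 1 and Id2 without any 1 library other than 0 h replicate 3. Eng and Bmp2 are also on the endothelial list, and without them 9 of 25 rose, with a median of -0.07. The part of endothelial RNA in these rises was not tested.

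The cell cycle lists can be read against the 9.53% of all tested genes that were higher and the 6.32% that were lower. Of 55 tested genes of G1/S and DNA replication 4 rose and none fell by edgeR (1 at an unadjusted p under 0.05, 1 by DESeq2 and 0 by limma-voom), and of 72 genes of mitosis and cytokinesis 2 rose and 7 fell. Orc6, a subunit of the origin recognition complex, rose with a log2 fold change of 1.64 (BH-adjusted p = 0.00691). Pold1, the catalytic subunit of DNA polymerase delta, was at 22.1, 21.1 and 11.7 CPM at 48 h, against 5.37, 6.28 and 5.13 CPM at 0 h (log2 fold change 1.71, standard error 0.30, adjusted p = 0.00801), and lost its call without 0 h replicate 1 (adjusted p = 0.0517). Spc24, a kinetochore subunit, was at 3.69, 3.13 and 4.04 CPM at 48 h, against 16.99, 15.4 and 24.8 CPM at 0 h and fell (log2 fold change -2.40, standard error 0.28, adjusted p = 0.00125). Without 48 h replicate 2 the mitosis falls were 14, while without 0 h replicate 1, 2 and 3 they were 2, 2 and 1. Mitosis genes that rose numbered 3 without 48 h replicate 1 and 1 if any other library was left out, and those of G1/S genes 2, 1 and 2 without 48 h replicate 3, 0 h replicate 1 and 0 h replicate 2. Without 48 h replicate 1 and 2 there were 1 and 2 falls of G1/S genes. Cdkn1a, the cycle inhibitor p21, was at 123, 121 and 136 CPM at 48 h, against 851, 638 and 643 CPM at 0 h and fell (log2 fold change -2.49, standard error 0.21, adjusted p = 0.000246). Cdkn1c, the inhibitor p57, was at 38.8, 47.3 and 40.02 CPM at 48 h, against 3.72, 0.991 and 2.497 CPM at 0 h and rose (log2 fold change 4.13, standard error 0.46, adjusted p = 0.00093).

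Among 25 tested enzymes and readers of DNA methylation and histone acetylation, 3 rose and 1 fell. These shares are close to those of all tested genes, of which 9.53% were higher and 6.32% lower. Tet2, which oxidizes methylated cytosine, was at 13.3, 24.1 and 12.9 CPM at 48 h, against 20.1, 19.5 and 25.8 CPM at 0 h. The times overlapped (log2 fold change -0.38, standard error 0.30, adjusted p = 0.471). Hdac1, a histone deacetylase, was at 122, 119.5 and 115 CPM at 48 h, against 69.5, 77.6 and 77.04 CPM at 0 h and rose (log2 fold change 0.67, standard error 0.16, adjusted p = 0.0274), a call that was lost without any 1 library other than 48 h replicate 1 (adjusted p up to 0.129). Hdac2 was at 23.3, 24.9 and 29.1 CPM at 48 h, against 18.7, 17.9 and 20.9 CPM at 0 h and did not pass (log2 fold change 0.42, standard error 0.19, adjusted p = 0.196). Hdac7, a class II deacetylase of endothelium and lymphocytes, was at 32.2, 20.2 and 24.2 CPM at 48 h, against 6.14, 5.12 and 5.11 CPM at 0 h and rose (log2 fold change 2.23, standard error 0.26, adjusted p = 0.00108). Dnmt3l, a cofactor of DNA methyltransferases, had 0 counts in each 48 h library and 1.89 CPM at 0 h on average, 128-fold above 3 counts over the 48 h libraries. It was called lower (adjusted p = 0.0053 from edgeR). The 3 rises were 1 without 48 h replicate 2 and without any 1 library of 0 h.

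The genes with the largest changes among those of at least 10 CPM at the higher time, called and not overlapping, came from these same groups and a few others. Among the rises were Cntfr, the receptor of ciliary neurotrophic factor, Xcr1, a receptor of cross-presenting dendritic cells, Dnase1l3, a secreted nuclease of dendritic and endothelial cells, Clec14a, an endothelial lectin, Ush1g, Vpreb3, Ptprcap, Fcrla and Cd79a. Cntfr was at 8.57, 20.7 and 16.4 CPM at 48 h, against 0.439, 0 and 0.151 CPM at 0 h (log2 fold change 6.28, standard error 0.98, adjusted p = 0.00442). Xcr1 was at 14.6, 20 and 17.3 CPM at 48 h, against 0.376, 0.299 and 0 CPM at 0 h (log2 fold change 6.26, standard error 0.88, adjusted p = 0.00259). Dnase1l3 was at 6424, 4734 and 4104 CPM at 48 h, against 93.7, 73.8 and 78.7 CPM at 0 h, with 48 h libraries far above those of 0 h (log2 fold change 5.95, standard error 0.31, adjusted p = 4.75e-05). The others had log2 fold changes of 5.93 (Clec14a), 5.89 (Ush1g), 5.82 (Vpreb3) and 5.52 (Ptprcap). Vpreb3 was no longer called if 48 h replicate 3 or if 0 h replicate 1 or 2 was left out (adjusted p up to 0.0686).

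The falls were Gsta1 and Gstm3, glutathione transferases, Saa2, Cxcl1, Saa1, Saa3, Nxpe5, Cxcl2, Chil3 and Fosl1. Gsta1 was at 0.0495, 0 and 0.0654 CPM at 48 h, against 21.2, 7.48 and 52.6 CPM at 0 h (log2 fold change -9.36, standard error 1.04, adjusted p = 0.000896). With so few counts at 48 h its fitted change depends on the prior count. Its call was lost with limma-voom (adjusted p = 0.187). Gstm3 was at 9.98, 6.68 and 5.65 CPM at 48 h, against 207, 109 and 2123 CPM at 0 h (log2 fold change -6.77, standard error 1.22, adjusted p = 0.00849). Saa2 was at 7.82, 7.55 and 1.19 CPM at 48 h, against 147, 182 and 537 CPM at 0 h, where 0 h replicate 3 was the highest library and all 48 h libraries were low (log2 fold change -5.71, standard error 0.86, adjusted p = 0.00362). For Nxpe5 the log2 fold change was -5.29 (BH-adjusted p = 0.00408). Sox9, a factor of bile duct cells, was at 3.65, 5.28 and 4.53 CPM at 48 h, against 0.6896, 1.33 and 2.38 CPM at 0 h (log2 fold change 1.61, standard error 0.55, adjusted p = 0.0904), and Tert, the telomerase reverse transcriptase, at 0.705, 0 and 1.93 CPM at 48 h, against 0.146, 0.112 and 0.284 CPM at 0 h (log2 fold change 2.27, standard error 1.601, adjusted p = 0.42), so that neither passed, Sox9 passing only with DESeq2 and in the fit of all 9 libraries. Lgr5, a Wnt target, did not pass the filter on low counts.

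**Figure D5:**
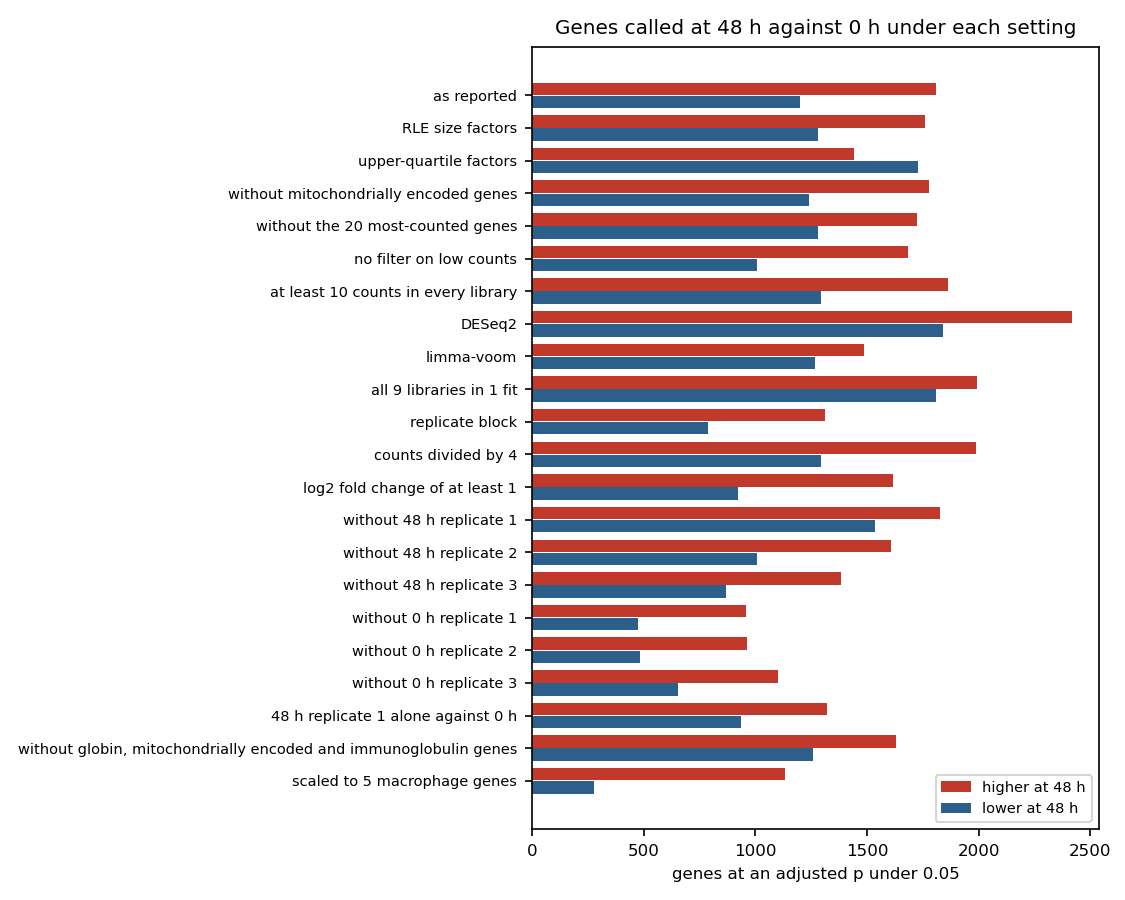
Bars give the number of genes called higher (red) or lower (blue) at 48 h against 0 h under each setting, with the setting of the text at the top. There were 1809 and 1200 in that one, the fewest higher genes were 958 without 0 h replicate 1, and the fewest lower genes were 279 when scaled to 5 macrophage genes; the bar for 48 h replicate 1 alone takes its spread from the 0 h libraries only.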

How the data were processed

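RNA of F4/80+CD11b+ liver cells was sequenced at 3 times after PHx (0, 24 and 48 h). The table deposited by the authors holds a whole-number count for each Ensembl gene in each library, with no scaling to depth. According to the submitters' processing notes, HISAT2 2.0.5, featureCounts 1.5.0-p3 and CASAVA 1.8 were used. The sources used here do not give the genome build. Values of 4 to 40 were multiples of 4 in 40.9% to 47.2% of cases, so the deposited counts were treated as estimated counts, and a unit is not known to be 1 fragment. Totals therefore do not give a counting error. The tests rest on the spread between libraries and on the counts taken as they stand, so p-values of genes with few counts are less sure. A table of gene names matched 52073 of 56691 IDs, and 721 tested genes had no symbol.

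The 48 h and 0 h libraries were grouped by their labels and compared without those of 24 h. Genes were filtered by filterByExpr (minimum count 10), scaled by TMM and tested with edgeR 4.0.16 (glmQLFit and glmQLFTest, R 4.3.3) at an adjusted p of 0.05. No pair of libraries held the same values (log2 CPM correlated at 0.948 or less). The genes named were the 10 largest rises and falls of at least 10 CPM with no overlap, immunoglobulin and T cell receptor segments and unnamed models left out, up to 4 members of each of 48 lists and direction with the smallest p, and the genes the study dwells on. Some genes that the rule names are not reported here. Others are marked as chosen after their values were seen. Members and lists were chosen with earlier results of these data known. A list is described by its counts and median, beside those of all genes, with no test of its own. Named list genes with no count at a time were set against 3 counts over that group. Since a unit is not known to be 1 fragment, such folds are not lower bounds. The median of each list with a gene at 0 in all libraries of a time was unchanged with that gene set at 3 counts over the group.

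Alternatives were RLE and upper-quartile factors, no mitochondrially encoded genes, no 20 most-counted genes, no filter, a minimum of 10 counts in all 6 libraries, limma-voom (limma 3.58.1), DESeq2 1.42.0, all 9 libraries in 1 fit, the replicate number as a block, counts divided by 4, a log2 fold change of at least 1 and each library left out in turn. Added after the data were seen were 48 h replicate 1 alone (1 library at 48 h, so that the 0 h libraries alone give the spread and its calls are not comparable with the others), no globin, mitochondrially encoded and immunoglobulin genes, and scaling to 5 macrophage genes. Promoter windows came from RefSeq (GRCm38.p6).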

Additional observations from a re-analysis of the deposited data

Results flagged for a closer look

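Apart from the alternative fit of all 9 libraries, the libraries of 24 h entered none of the comparisons above. In them the liver endothelial genes summed to a median of 1729 CPM (1162 to 1811, scaled to the total count of a library only), and each 24 h library was above each 0 h library (913 to 999). On the same scale the 48 h libraries lay at 14820 to 16760. The T cell genes of the 24 h libraries (23.1 to 29.2 CPM) overlapped those of 0 h (16.7 to 28.4 CPM).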

How the results depend on the processing

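The counts of higher and lower genes stayed within 1.5 times the reported 1809 and 1200 under RLE and upper-quartile factors, without mitochondrially encoded genes or the 20 most-counted genes, with no filter or a stricter one, with limma-voom, with counts divided by 4, with a log2 fold change of at least 1, with 48 h replicate 1 alone and without globin, mitochondrially encoded and immunoglobulin genes. DESeq2 called 1842 lower genes, a fit of all 9 libraries called 1809 lower genes, and the scaling to 5 macrophage genes left 1131 higher and 279 lower genes. Leaving out 1 library gave 958 to 1828 higher and 476 to 1535 lower genes. The difference in the mitochondrial share was 9.384 percentage points, 9.388 over tested genes only and 6.92 to 12.35 with 1 library left out. Of the 149 genes looked at singly, 6 changed sign, none of them past the test where it did so. Without 48 h replicate 1 Csf1r was called lower (-0.97). On the log2 scale, Adgre1 was at -0.72 to 0.25 with 1 library left out and at 0.6845 with 48 h replicate 1 alone. Adgre1 was at 0.0011 when scaled to 5 macrophage genes, of which it is 1, so that this value is partly set by the scaling. C1qa was at -0.60 to 0.44 with 1 library left out, at -0.0844 with upper-quartile factors and at -0.0882 with limma-voom. Csf1r was at 0.46 with 48 h replicate 1 alone. Cxcl10 was at -0.0507 to 0.4093 with 1 library left out and at -0.0155 with upper-quartile factors. Stat3 was at 0.0645 and Tet2 at 0.32 when scaled to 5 macrophage genes. The cause of these changes was not tested.

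Deviations of same-numbered libraries from their group means correlated with 0.0198, 0.0125 and 0.00975 across genes, and those of unlike numbers with -0.0258 to 0.0111. The 48 h replicates 1 and 2 correlated best with their own number, and 48 h replicate 3 with 0 h replicate 2. Values this small, from 3 libraries per time, cannot settle whether equal numbers share a mouse or a batch. With the number as a replicate block 1312 genes were higher and 787 lower, and C1qa was at -0.0848. The depth in fragments is not known, so what it limits was not worked out.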

Other observations

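Neutrophil genes moved in both directions. Of 28 tested, 3 rose and 7 fell. The share of rises was close to the 9.53% of all tested genes, of which 6.32% were lower. With any 1 library left out the rises stayed at 3 and the falls were 6 to 9. Scaled to the 5 macrophage genes 3 rose and 4 fell, with a median of 0.01. Ngp, a granule protein of immature neutrophils, was at 119, 218 and 114 CPM at 48 h, against 7.397, 9.25 and 6.77 CPM at 0 h (log2 fold change 4.27, standard error 0.32, adjusted p = 0.000151). Camp, the cathelicidin of secondary granules, was at 52.96, 93.2 and 37.05 CPM at 48 h, against 1.21, 2.71 and 1.49 CPM at 0 h (log2 fold change 5.08, standard error 0.48, adjusted p = 0.000429), and Ltf, lactoferrin, rose with a log2 fold change of 3.64 (BH-adjusted p = 0.000607). Trem1, an activating receptor of neutrophils and monocytes, was at 10.3, 19.1 and 16.2 CPM at 48 h, against 89.6, 71.5 and 61.4 CPM at 0 h (log2 fold change -2.29, standard error 0.28, adjusted p = 0.00146). Mmp8, the neutrophil collagenase, fell with a log2 fold change of -3.19 (BH-adjusted p = 0.00184).

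Of 20 listed genes of basophils, mast cells and eosinophils 12 passed the filter on low counts, of which 3 rose and 1 fell. Of all tested genes 9.53% were higher and 6.32% lower. Among the members that did not pass the filter, Fcer1a and Epx had no count in any library of either time. Kit, the stem cell factor receptor, was at 26.8, 30.6 and 33.6 CPM at 48 h, against 2.03, 5.59 and 3.52 CPM at 0 h (log2 fold change 3.03, standard error 0.38, adjusted p = 0.00157), and Gata2, a transcription factor of these lineages, rose with a log2 fold change of 3.08 (BH-adjusted p = 0.00319). Siglecf, an eosinophil lectin, had 0 counts in each 48 h library and 1.19 CPM at 0 h on average, 80.2-fold above 3 counts over the 48 h libraries. It lost its call without 0 h replicate 1 or 2. The 1 fall of the list was 2 without 48 h replicate 1 or 0 h replicate 3 and 0 without 0 h replicate 1 or 2. Genes of other cell types, endothelium among them, rose in the same libraries, and their part in the rises of this list was not tested.

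Of 20 genes of iron and heme handling 1 rose and 5 fell. Slc40a1, the iron exporter ferroportin, was at 422, 113 and 176 CPM at 48 h, against 31.5, 15.4 and 46.7 CPM at 0 h and rose (log2 fold change 2.92, standard error 0.58, adjusted p = 0.0124). Ftl1 and Fth1, the ferritin chains, fell with log2 fold changes of -2.50 (BH-adjusted p = 0.00156) and -2.77 (BH-adjusted p = 0.00289). The 5 falls were 3 without 48 h replicate 2 and 2 without 48 h replicate 3 or any 1 library of 0 h, and Slc40a1 lost its call without 0 h replicate 1 or 2, while 2 genes rose without 48 h replicate 2. Among 34 lysosome genes 9 fell and none rose by edgeR (1 at an unadjusted p under 0.05, 1 by DESeq2 and 0 by limma-voom; 15 fell by DESeq2), which became 16, 5 and 3 on leaving out 48 h replicate 1, 2 and 3 in turn, 2, 2 and 5 without 0 h replicate 1, 2 and 3, and 0 when scaled to the 5 macrophage genes. Ctsc, cathepsin C, fell with a log2 fold change of -1.67 (BH-adjusted p = 0.00695).

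Of 30 genes of complement and of the uptake of dead cells 8 rose and 3 fell. Stab1 and Stab2 are on the endothelial list, whose genes rose in the same libraries, and without them 6 of 28 rose and 3 fell, with a median log2 fold change of 0.14. Gas6, the ligand that bridges dead cells to MERTK, was at 157, 154 and 147 CPM at 48 h, against 34.6, 25.6 and 25.7 CPM at 0 h (log2 fold change 2.41, standard error 0.20, adjusted p = 0.000218). Mfge8, another bridging protein, rose with a log2 fold change of 2.25 (BH-adjusted p = 0.000361). The 8 rises were 5 to 8 with any 1 library left out, being 5 without 0 h replicate 2 or 3, and the 3 falls were 8 without 48 h replicate 1, 2 without 48 h replicate 2 or 0 h replicate 1, 1 without 0 h replicate 3 and 0 without 48 h replicate 3 or 0 h replicate 2.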
